A study of Mus musculus with 16 samples.

Results

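Described here are 10 genes by which endothelial cells, the cells that line blood and lymph vessels, are commonly recognised: Pecam1, Cdh5, Esam, Cldn5, Egfl7, Tek, Tie1, Emcn, Eng and Vwf. They were chosen by name, with earlier results of these data known, and all 10 have a row among the 23999 gene symbols of the count table. They were read in 16 poly(A) RNA libraries of mice that all carry NPM1cA, a mutant of the nucleolar chaperone NPM1 that drives acute myeloid leukaemia. The libraries are 6 myeloid sarcomas, solid growths of leukaemia cells outside the marrow, from 4 mice labelled NPM1cA/SMC3+/-, 9 whole bone marrows from 9 mice of the same genotype, and 1 sarcoma of mouse 841, labelled NPM1cA with no change of SMC3. SMC3 is a subunit of cohesin, the ring complex that shapes chromatin loops.

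Mice 948 and 2721 gave 2 tumours each, mice 1267 and 2721 gave both tissues, and the label 1268_1270 may name 1 mouse or a pool of 2, so the count of 4 sarcoma mice treats it as 1. The labels give no strain, age, treatment, site of the tumour, or promoter that drives a transgene. Tumours were cut free of their surroundings and went straight into Trizol, whereas marrow was crushed, passed through 2 filters and cleared of red cells, so tissue and handling cannot be told apart. In bulk RNA, fewer endothelial cells and less endothelial RNA per cell cannot be told apart either.

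Endothelial cells hold each other by adherens junctions built on VE-cadherin (Cdh5) and by tight junctions with claudin-5 (Cldn5), and they carry the adhesion molecules PECAM-1 (Pecam1) and ESAM (Esam) at the same contacts. Angiopoietins act on the receptor tyrosine kinase Tie2 (Tek), whose partner Tie1 has no well-established ligand of its own, and endoglin (Eng) is a co-receptor for BMP9 and TGF-beta signals through Acvrl1. Endomucin (Emcn) is a surface sialomucin of veins and capillaries, Egfl7 a secreted matrix-bound protein, and von Willebrand factor (Vwf) a secreted protein that captures platelets. Most of these genes are not exclusive to vessels. Platelets, monocytes, neutrophils and progenitors make Pecam1, megakaryocytes and platelets make Vwf, and macrophages, erythroid precursors and stem cells make Eng. Blood stem cells are known to make Esam, Egfl7, Tek and Emcn, and Tie1 has been found in immature blood cells. Cdh5 and Cldn5 are the most restricted of the 10 in adult blood and marrow.

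Promoter windows of 300 bases, 250 before to 50 after a start site, were matched by symbol for 6 of the 10 genes in RefSeq (build GRCm38.p6), and 5 are shown because these genes carry the results on receptors and on the tumour of mouse 948. Pecam1, Cdh5, Esam and Vwf are named only. Both strands were searched for AGGAAG and CGGAAG, forms of the site that ETS factors such as Erg and Fli1 recognise. The others searched were AGATAA, which factors such as Gata2 recognise, and TAAACA, a forkhead site. Capitals mark the matches, read on either strand, and no match overlapped another in the windows printed.
Cldn5, chr16:18776597-18776896, plus strand: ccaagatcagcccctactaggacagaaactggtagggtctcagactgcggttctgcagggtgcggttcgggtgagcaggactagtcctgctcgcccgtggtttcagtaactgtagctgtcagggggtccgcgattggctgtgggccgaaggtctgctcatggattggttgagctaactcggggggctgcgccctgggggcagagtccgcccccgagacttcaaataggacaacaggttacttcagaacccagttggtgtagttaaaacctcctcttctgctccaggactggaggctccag
Tek, chr4:94739039-94739338, plus strand: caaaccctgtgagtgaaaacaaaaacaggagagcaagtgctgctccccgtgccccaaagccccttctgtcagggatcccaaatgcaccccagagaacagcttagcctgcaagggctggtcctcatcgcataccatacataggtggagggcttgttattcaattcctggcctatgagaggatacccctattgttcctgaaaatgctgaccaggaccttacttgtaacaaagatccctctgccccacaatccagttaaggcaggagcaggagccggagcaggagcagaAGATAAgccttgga
Tie1, chr4:118489800-118490099, minus strand: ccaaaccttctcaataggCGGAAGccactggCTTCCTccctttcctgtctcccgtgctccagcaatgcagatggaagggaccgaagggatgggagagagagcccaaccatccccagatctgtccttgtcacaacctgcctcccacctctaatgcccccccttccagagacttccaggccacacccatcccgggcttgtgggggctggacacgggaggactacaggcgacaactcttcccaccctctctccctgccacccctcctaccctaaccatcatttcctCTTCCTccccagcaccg
Emcn, chr3:137340828-137341127, plus strand: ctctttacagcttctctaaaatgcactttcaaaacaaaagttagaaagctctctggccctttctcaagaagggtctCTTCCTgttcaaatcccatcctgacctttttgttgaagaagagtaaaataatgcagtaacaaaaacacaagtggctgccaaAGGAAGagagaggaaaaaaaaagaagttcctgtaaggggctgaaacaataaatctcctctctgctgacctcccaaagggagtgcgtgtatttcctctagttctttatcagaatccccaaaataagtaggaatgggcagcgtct
Eng, chr2:32646345-32646644, plus strand: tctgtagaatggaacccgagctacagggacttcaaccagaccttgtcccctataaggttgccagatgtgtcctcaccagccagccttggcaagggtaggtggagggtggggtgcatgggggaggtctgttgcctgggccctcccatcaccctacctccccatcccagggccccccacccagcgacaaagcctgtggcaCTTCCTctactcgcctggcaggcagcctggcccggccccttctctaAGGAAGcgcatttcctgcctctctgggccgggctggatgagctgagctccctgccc
The Tie1 window held 2 matches to AGGAAG and 1 to CGGAAG, and the windows of Emcn and Eng held 2 matches to AGGAAG each. The Tek window held 1 match to AGATAA, 36 bases past the start site, and the Cldn5 window held none of the searched sites. Of 32851 windows of the same length in the RefSeq table, 35.4% held AGGAAG, 16.9% CGGAAG, 11.2% AGATAA and 13.4% TAAACA, so these letters are common. A match describes the sequence and is not a measured binding site. Egfl7 also hosts the microRNA miR-126, whose mature 3′ arm, with its seed at bases 2 to 8 in capitals, is
mmu-miR-126a-3p, chr2:26591402-26591423, plus strand: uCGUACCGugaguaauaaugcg
It is shown because the microRNA and Egfl7 share a transcript. Libraries of poly(A) RNA do not measure mature microRNAs, and the row Mir126a held 20 counts in all 16 libraries.

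Levels are CPM, the counts of a gene relative to the TMM-scaled total of its library, and a mouse with 2 tumours is given its tumours' mean. The libraries held 12072482 to 33605464 counts in SMC3+/- sarcomas, 12395041 to 39197660 in marrow and 9797201 in mouse 841. Some marrow libraries held few rarely counted genes: symbols with 1 to 5 counts numbered 144 to 354 in the marrows of mice 2721, 1267, 782 and 1103 (lowest first), against 683 to 2124 in the other 5 and 1137 to 2443 in the tumours. In marrows 737, 779 and 782, transcripts over 6000 bases lay 2.02 to 2.18 log2 units below the median library, whereas in the other 13 libraries they lay between 0.73 below and 0.42 above it. Any 0 count below stands beside these facts, whose part in it was not tested. The tissues were compared with edgeR's quasi-likelihood test over 14730 genes, 4 sarcoma mice against 9 marrow mice, with Benjamini-Hochberg adjustment over all of them and a threshold of 0.05. Differences are log2, sarcoma over marrow, with a standard error back-calculated from the test, which is approximate for genes near 0 in marrow.

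All 10 genes passed the count filter, but Cdh5, Esam, Cldn5, Tek and Emcn are so low in marrow that they passed it through the sarcomas. Of the 10, 3 were called higher in sarcomas (Esam, Cldn5 and Tek), 0 lower, and 7 were not called (edgeR quasi-likelihood test). Among all genes tested, 4.49% were called higher and 0.0543% lower. At an unadjusted p under 0.05, 8 of the 10 were higher and 0 lower, against 11.7% and 2.1% of all genes. DESeq2 and limma-voom each called 5 higher and 0 lower, but not the same 5. Those of DESeq2 were Cdh5, Esam, Tek, Emcn and Eng, and it gave no adjusted p for Cldn5. Those of limma-voom were Cdh5, Esam, Cldn5, Tek and Emcn. Of all genes, DESeq2 called 4.72% higher and 0.616% lower, and limma-voom 6.05% and 0.143%. The median difference was 3.68 log2 units over the 10 genes and 0.07 over all genes tested, and all 10 differences were positive. The lowest sarcoma mouse lay above the highest marrow mouse for 5 of the 10, Esam, Cldn5, Tek, Emcn and Vwf, against 4.74% of all genes tested. No gene of the 10 lay below every marrow mouse, against 0.115% of all genes. The share called among the 10 was thus 30%, and 9 of the 10 were highest in sarcoma 1268_1270, all but Pecam1.

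**Figure D1:**
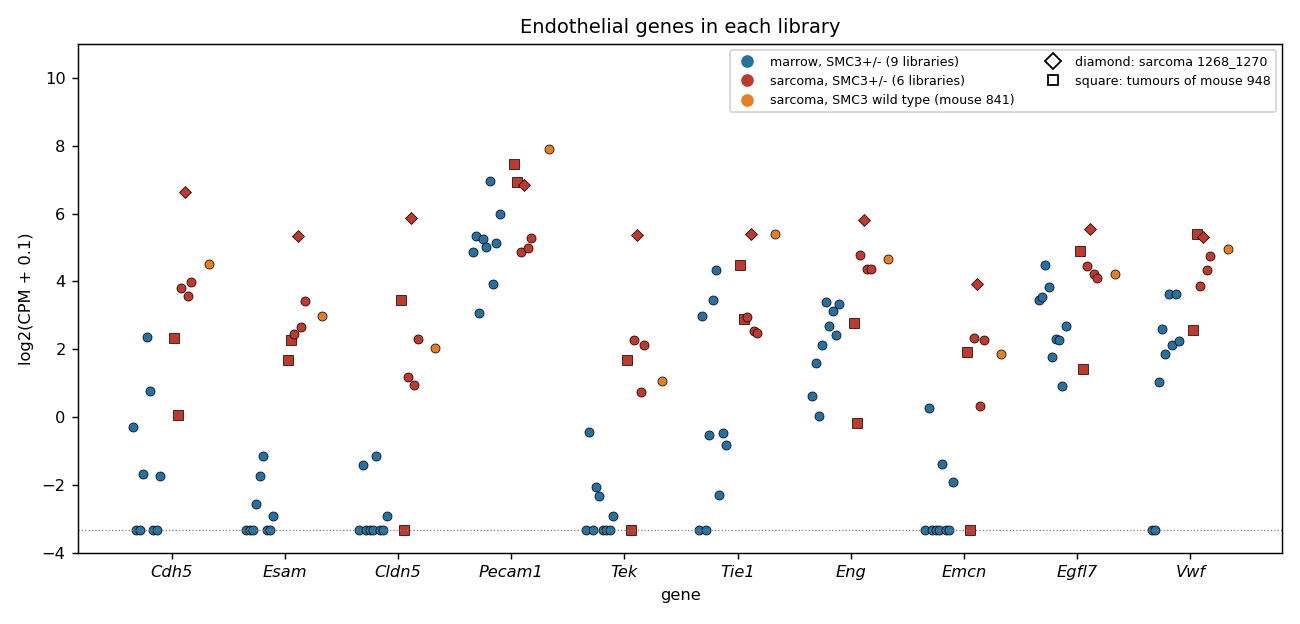
Level of each endothelial gene in each of 16 libraries, as log2(CPM + 0.1), in SMC3+/- sarcomas, the sarcoma of mouse 841 and SMC3+/- marrows, with the dotted line at 0 counts. Esam separates the tumours (3.14 CPM and above) from the marrows (0.349 CPM and below), whereas Pecam1 is present in every marrow and its groups overlap.

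Among the junction genes, Cdh5 had 4.89 and 0.942 CPM in the tumours of mouse 948, 13.8 in mouse 1267, 99.2 in mouse 1268_1270, and 11.8 and 15.8 in the tumours of mouse 2721. Its marrow values were 5.05 CPM in mouse 949, 1.62 in mouse 1103, 0.718 in mouse 737, 0.213 in mouse 919, 0.197 in mouse 3332 and 0 in mice 779, 782, 1267 and 2721. The adherens junction gene was thus far highest in 1 tumour, absent from the counts of 4 marrows, and overlapped only because tumours of mouse 948 averaged 2.91 CPM, below marrow 949. Cdh5 averaged 32.4 ± 44.8 CPM (SD, n = 4) in sarcomas and 0.866 ± 1.66 CPM (SD, n = 9) in marrow, a difference of 5.18 ± 1.41 that just missed the threshold (edgeR adjusted p = 0.052). Of the 176 marrow counts of Cdh5, 101 came from mouse 949 and 51 from mouse 1103. Without marrow 949 the difference in Cdh5 was 6.50 and was called (edgeR adjusted p = 0.0155), and without sarcoma 948 it was 5.59 and was called (adjusted p = 0.0404). Without sarcoma 1268_1270 it was 3.40 and was not called (edgeR adjusted p = 0.684).

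Esam, an immunoglobulin-family adhesion molecule, had 3.14 and 4.71 CPM in the tumours of mouse 948, 5.39 in mouse 1267, 40.6 in mouse 1268_1270, and 6.23 and 10.54 in the tumours of mouse 2721. In marrow it reached 0.349 CPM in mouse 1103, 0.200 in mouse 949, 0.0709 in mouse 919 and 0.0329 in mouse 3332, from 19 counts in all, and was 0 in the other 5. Every tumour library lay above every marrow library, and Esam was the member with the smallest p. It rose by 7.40 ± 1.20 (edgeR adjusted p = 0.00262), from 0.0725 ± 0.123 CPM (SD, n = 9) to 14.6 ± 17.5 CPM (SD, n = 4). Without sarcoma 1268_1270 the rise of Esam was 6.01, and it kept the call.

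Cldn5, the main claudin of endothelial tight junctions, was uneven between tumours. It had 10.8 CPM in tumour 1 of mouse 948 and 0 in tumour 2, 2.18 in mouse 1267, 58.2 in mouse 1268_1270, and 1.83 and 4.88 in the tumours of mouse 2721. In marrow, Cldn5 had 0.349 CPM in mouse 1103, 0.276 in mouse 779, 0.0329 in mouse 3332 and 0 in the other 6, from 15 counts in all. Averaged by mouse the groups did not overlap, but tumour 2 of mouse 948 by itself lay at 0 among the marrows. Cldn5 rose by 7.80 ± 1.40 (edgeR adjusted p = 0.00521), to 17.3 ± 27.3 CPM (SD, n = 4) from 0.0731 ± 0.137 CPM (SD, n = 9). Without sarcoma 1268_1270 the difference was 5.49 and lost the call (edgeR adjusted p = 0.115).

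Pecam1 behaved otherwise, being well counted in every library of both tissues. It had 177 and 121 CPM in the tumours of mouse 948, 115 in mouse 1268_1270, 29.1 in mouse 1267, and 31.7 and 38.9 in the tumours of mouse 2721. Its marrow values were 125 CPM in mouse 1103, 63.0 in mouse 3332, 40.6 in mouse 779, 38.2 in mouse 919, 34.7 in mouse 2721, 31.95 in mouse 949, 28.8 in mouse 737, 15.1 in mouse 1267 and 8.23 in mouse 782. The groups overlapped almost wholly, and the difference of 0.85 ± 0.59 was not called (edgeR adjusted p = 0.669). Leaving out marrow 1103 moved it to 1.32 and leaving out sarcoma 948 to 0.49, neither of them called. Pecam1 made up 24.8% to 74.2% of all counts of the 10 genes in marrow. In tumours its share was 20.8% in mouse 1268_1270, 22.1% in mouse 1267, 26.5% and 26.1% in mouse 2721, 66.2% and 67.5% in mouse 948 and 60.6% in mouse 841.

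Of the receptors, Tek had 3.14 CPM in tumour 1 of mouse 948 and 0 in tumour 2, 4.76 in mouse 1267, 41.5 in mouse 1268_1270, and 1.56 and 4.25 in the tumours of mouse 2721. In marrow it had 0.645 CPM in mouse 779, 0.142 in mouse 919, under that in mice 949 (2 counts) and 3332 (1 count) and 0 in the other 5, from 16 counts in all. Tek, which encodes the angiopoietin receptor Tie2, was thus nearly absent from the marrow counts. It rose by 7.05 ± 1.38 (edgeR adjusted p = 0.00831), from 0.102 ± 0.210 CPM (SD, n = 9) to 12.7 ± 19.3 CPM (SD, n = 4). Without sarcoma 1268_1270 the difference was 4.85 and lost the call (edgeR adjusted p = 0.191).

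Tie1, unlike Tek, was well counted in some marrows. It had 22.5 and 7.38 CPM in the tumours of mouse 948, 7.60 in mouse 1267, 42.2 in mouse 1268_1270, and 5.72 and 5.52 in the tumours of mouse 2721. Marrows 1103, 949 and 779 had 20.04, 10.8 and 7.83 CPM of Tie1, while the other 6 had 0.619 CPM or less, marrows 737 and 782 had 0, and the median was 0.591 CPM. The 3 high marrows thus lay within the range of the tumours. They include the marrows with most Cdh5 (949 and 1103) and most Tek (779), but in other proportions: marrow 1103 had 632 counts of Tie1 beside 51 of Cdh5 and 0 of Tek. Tie1 differed by 1.91 ± 1.36 and was not called (edgeR adjusted p = 0.683), and without sarcoma 1268_1270 the difference was 0.93.

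Eng, the endoglin co-receptor, had 6.76 and 0.785 CPM in the tumours of mouse 948, 27.6 in mouse 1267, 56.5 in mouse 1268_1270, and 20.7 and 20.5 in the tumours of mouse 2721. In marrow it had 10.4 CPM in mouse 949, 9.999 in mouse 3332, 8.65 in mouse 1267, 6.34 in mouse 1103, 5.21 in mouse 2721, 4.30 in mouse 919, 2.95 in mouse 779, 1.44 in mouse 737 and 0.914 in mouse 782. Eng was counted in every library, and the tumours of 3 mice lay above all marrows. Tumour 1 of mouse 948 lay among the marrows, and tumour 2, at 0.785 CPM, lay below all of them. The difference of 2.20 ± 0.66 was not called (edgeR adjusted p = 0.081), but without sarcoma 948 it was 2.65 and was called (adjusted p = 0.0236). Without sarcoma 1268_1270 the difference in Eng was 1.48 (edgeR adjusted p = 0.773). Eng shares 61 of its 4048 exon bases with Fpgs on the opposite strand, and the strand setting of the counting is not given in the sources used here, so a few of its counts are uncertain.

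Among the surface and secreted proteins, Emcn had 3.68 CPM in tumour 1 of mouse 948 and 0 in tumour 2, 4.90 in mouse 1267, 15.05 in mouse 1268_1270, and 1.14 and 4.69 in the tumours of mouse 2721. In marrow it had 1.11 CPM in mouse 779, 0.285 in mouse 1103, 0.164 in mouse 3332 and 0 in the other 6, from 26 counts. By mouse, the sialomucin gene had no overlap between the tissues. Its difference of 5.16 ± 1.48 missed the threshold (edgeR adjusted p = 0.0661), and without marrow 779 it was 6.51 and was called (edgeR adjusted p = 0.02). Without sarcoma 1268_1270 the difference in Emcn was 4.12 (edgeR adjusted p = 0.521).

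Egfl7 had 29.7 and 2.59 CPM in the tumours of mouse 948, 21.9 in mouse 1267, 47.0 in mouse 1268_1270, and 18.7 and 17.2 in the tumours of mouse 2721. Its marrow values were 22.1 CPM in mouse 782, 14.1 in mouse 919, 11.6 in mouse 779, 10.9 in mouse 737, 6.32 in mouse 3332, 4.88 in mouse 1103, 4.69 in mouse 1267, 3.30 in mouse 949 and 1.78 in mouse 2721. Egfl7 was the most counted member in marrow 782, with 314 counts beside 117 of Pecam1, where Cdh5, Esam, Cldn5, Tek and Emcn were all at 0. The difference of 1.5 ± 0.56 was not called (edgeR adjusted p = 0.189), and without sarcoma 1268_1270 it was 0.98. Egfl7 shares 64 of its 3581 exon bases with Agpat2 on the opposite strand, which had 61.7 to 304 CPM over the 16 libraries, so the origin of some of its counts is uncertain without the strand setting.

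Vwf had 5.85 and 41.9 CPM in the tumours of mouse 948, 14.4 in mouse 1267, 39.2 in mouse 1268_1270, and 20.3 and 26.9 in the tumours of mouse 2721. In marrow it had 12.3 CPM in mouse 1103, 12.2 in mouse 2721, 6.001 in mouse 919, 4.64 in mouse 3332, 4.27 in mouse 1267, 3.50 in mouse 949, 1.97 in mouse 782 and 0 in mice 737 and 779. Averaged by mouse, all 4 sarcomas lay above all 9 marrows, but tumour 1 of mouse 948 by itself lay below marrows 1103, 2721 and 919. The difference of 2.19 ± 1.00 was not called (edgeR adjusted p = 0.344). Vwf has the longest transcript of the 10, 8834 bases, and its 3 lowest marrows are the 3 in which long transcripts were low. Without those 3 marrows and tumour 1 of mouse 948 the difference in Vwf was 1.95 and not called (edgeR adjusted p = 0.0718). The summed level of 16 platelet and megakaryocyte genes was 62.2 to 241 CPM in the SMC3+/- tumours and 42.0 to 199.6 CPM in marrow, and 1 of the 13 tested, Pf4, was called higher (3.40 ± 0.91, edgeR adjusted p = 0.0484). Their part in the Vwf values was not tested.

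**Figure D2:**
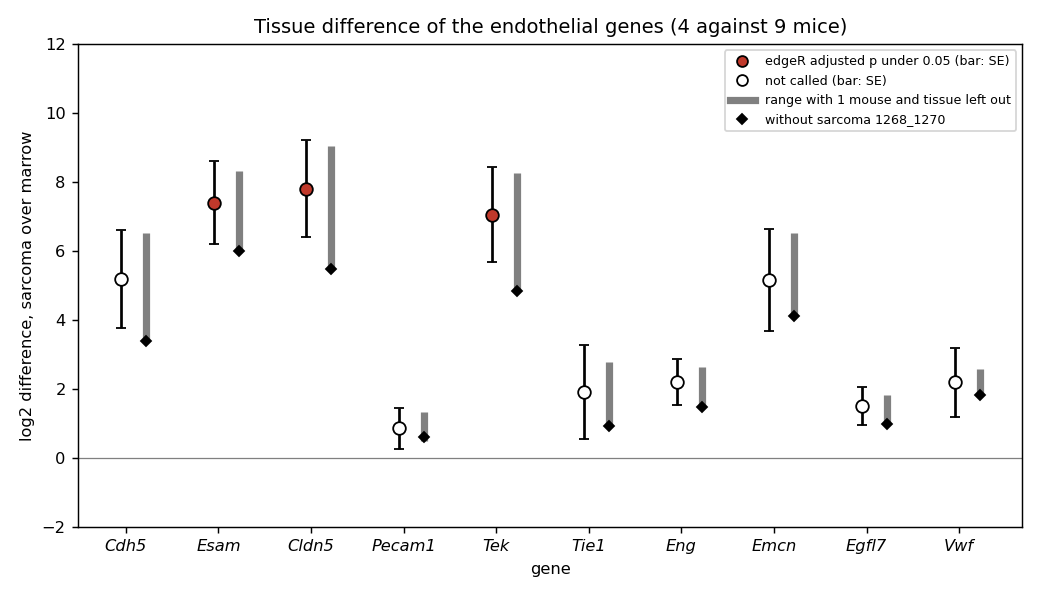
Difference between 4 SMC3+/- sarcoma mice and 9 SMC3+/- marrow mice for each endothelial gene, log2, with its SE, the range when 1 mouse and tissue is left out (grey), and the value without sarcoma 1268_1270 (diamond). Esam, Cldn5 and Tek, filled, passed the threshold at 7.40, 7.80 and 7.05, and the diamond is lower than the full value for every gene.

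Genes that work with the members were read from lists. Among partners of the endothelial junction, DESeq2 called 1 higher, limma-voom 4, and each 0 lower. Against 4.49% and 0.0543% of all genes, edgeR called 2 of the 14 tested higher and 0 lower, with a median difference of 1.85. They were Mcam (7.30 ± 1.64, edgeR adjusted p = 0.0184), an adhesion molecule that pericytes also make, and Tjp1 (5.68 ± 1.53, adjusted p = 0.0496), the scaffold ZO-1 that many cell types make. Without sarcoma 1268_1270 both lost the call, at 2.36 and 2.06, and Tjp1 lost it also on leaving out any of 8 marrows. The catenins that bind Cdh5 were present in both tissues: Ctnnb1 averaged 362 CPM in sarcomas and 281 CPM in marrow.

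In the Tie pathway, DESeq2 called 1 gene higher, limma-voom 2, and each 0 lower. Against 4.49% and 0.0543% of all genes, edgeR called 1 of 6 tested genes higher and 0 lower. It was Ptprb, the endothelial phosphatase VE-PTP that binds Tie2 and VE-cadherin, which rose by 8.15 ± 1.28 (edgeR adjusted p = 0.00214), from 0.119 to 39.5 CPM, and fell just short without sarcoma 1268_1270 at 6.06 (adjusted p = 0.0514). The ligand Angpt2, which endothelial cells make, had 2.95 CPM in sarcomas and 0.211 CPM in marrow and was not called by edgeR (adjusted p = 0.191). The ligand Angpt1 had 5.12 and 6.92 CPM. Svep1, a matrix protein that binds Tie1, differed by 4.19 ± 1.46 without a call (adjusted p = 0.149), and by 1.30 without sarcoma 1268_1270. Dok2, an adaptor of Tie2 that is also abundant in blood cells, differed by -0.46.

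Of 11 tested genes of the endoglin pathway, 0 were called in either direction by edgeR, DESeq2 or limma-voom, 3 were higher and 0 lower at an unadjusted p under 0.05, and their median was 0.16. Tgfbr2 came nearest among the genes named here (1.13 ± 0.38, adjusted p = 0.129). Acvrl1, the receptor that endoglin assists, had 22.4 CPM in sarcomas and 35.5 CPM in marrow, and Smad4 differed by -0.45. The target genes Id1, Id2 and Id3 were not analysed here.

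DESeq2 and limma-voom each called 4 of 18 listed transcription factors of endothelial cells higher and 0 lower. At an unadjusted edgeR p under 0.05, 4 were higher and 1 lower, against 11.7% and 2.1% of all genes. The median of the 14 tested was -0.13, and edgeR called 1 higher and 0 lower (4.49% and 0.0543% of all genes). It was Epas1, an oxygen-regulated factor that macrophages and fat cells also make, which rose by 5.76 ± 1.32 (edgeR adjusted p = 0.0208) and, at 3.52, was no longer called once sarcoma 1268_1270 was left out. The ETS factors were counted in both tissues: Fli1 had 103 CPM in sarcomas and 90.2 CPM in marrow, Ets1 152 and 172 CPM, and Erg 11.1 and 19.9 CPM. None of them was called by edgeR. Lyl1 (-0.34) and Ets1 (-0.30) turned to small positive values in some alternatives, and neither was called in any. Sox17, an arterial factor, averaged 3.44 CPM in sarcomas, had 0 counts in marrow and did not pass the count filter.

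A further 45 genes of vessels were listed for comparison, 43 of them tested. DESeq2 and limma-voom called 12 and 22 of the list higher and 0 lower. Of the 43, edgeR called 17 higher and 0 lower, a share of 39.5% against 4.49% of all genes. The median was 3.68, as for the 10 members. The 4 with the smallest p were Gpihbp1, the capillary protein that holds lipoprotein lipase (10.20 ± 1.18, edgeR adjusted p = 0.000427), Cav1, a coat protein of caveolae that fat cells also hold (12.46 ± 1.79, adjusted p = 0.00127), Tm4sf1 (7.18 ± 1.27, adjusted p = 0.00467) and Palmd (9.92 ± 1.78, adjusted p = 0.00503). Without sarcoma 1268_1270, Cav1 moved to 6.94, Palmd to 3.73 and Tm4sf1 to 5.64, and Palmd and Tm4sf1 lost their calls. Without that tumour, 2 genes of the list were called. Cd93, also of monocytes, was not called, at 144 CPM in sarcomas and 172 CPM in marrow, nor was Cd34, also of progenitors, at 49.3 and 90.1 CPM.

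Markers of other cells moved beside the endothelial genes. Sarcoma 1268_1270 had a summed level of 788 CPM for 15 pan-leukocyte genes, against 7141 to 17193 CPM in the other 6 tumours and 8662 to 16178 CPM in marrow. Its 12 adipocyte genes summed to 82843 CPM, against 671 to 1543 CPM in the other tumours and 217 to 674 CPM in marrow. Of the lists, edgeR called higher 10 of 11 tested adipocyte genes, 10 of 12 fibroblast genes and 6 of 12 pericyte and smooth muscle genes. It also called higher 7 of 9 skeletal muscle genes, 4 of 14 monocyte and macrophage genes and 2 of 14 stem and progenitor genes. It called 0 of them lower, and 4.49% of all genes tested were called higher. DESeq2 and limma-voom called higher 0 and 3 adipocyte genes, and 10 and 2 of the 12 skeletal muscle genes listed. A gene for which DESeq2 gave no adjusted p is counted as not called in these lists. They called higher 7 and 10 fibroblast genes, and 5 and 8 pericyte and smooth muscle genes. DESeq2 called 1 monocyte and macrophage gene lower, and 2 were lower in edgeR at an unadjusted p under 0.05. All 11 tested adipocyte genes were highest in sarcoma 1268_1270. The stem and progenitor genes called were Ly6a (2.72 ± 0.64, edgeR adjusted p = 0.0223) and Fgd5 (7.02 ± 1.15, adjusted p = 0.00274), and endothelial cells make both. Of 15 pan-leukocyte genes and 13 erythroid genes, 0 were called by edgeR, and at an unadjusted p under 0.05 2 pan-leukocyte genes and 1 erythroid gene were lower. The part of these cells in the members' values was not tested.

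The 5 members with least marrow signal, Cdh5, Esam, Cldn5, Tek and Emcn, together gave 255 CPM in sarcoma 1268_1270. These 5 were picked by their low marrow level in these data, so their low marrow sums follow from that choice. They summed to 25.6 and 5.65 CPM in the tumours of mouse 948, 31.0 in mouse 1267, 22.6 and 40.2 in the tumours of mouse 2721 and 39.9 in mouse 841. In marrow they summed to 5.35 CPM in mouse 949, 2.60 in mouse 1103, 2.03 in mouse 779, 0.718 in mouse 737, 0.460 in mouse 3332 and 0.425 in mouse 919. Marrows 782, 1267 and 2721 had 0 counts of all 5, which allows up to 0.211, 0.154 and 0.109 CPM of each gene if up to 3 counts went unseen. The lowest tumour, tumour 2 of mouse 948, was thus scarcely above marrow 949, and sarcoma 1268_1270 stood far above all others.

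**Figure D3:**
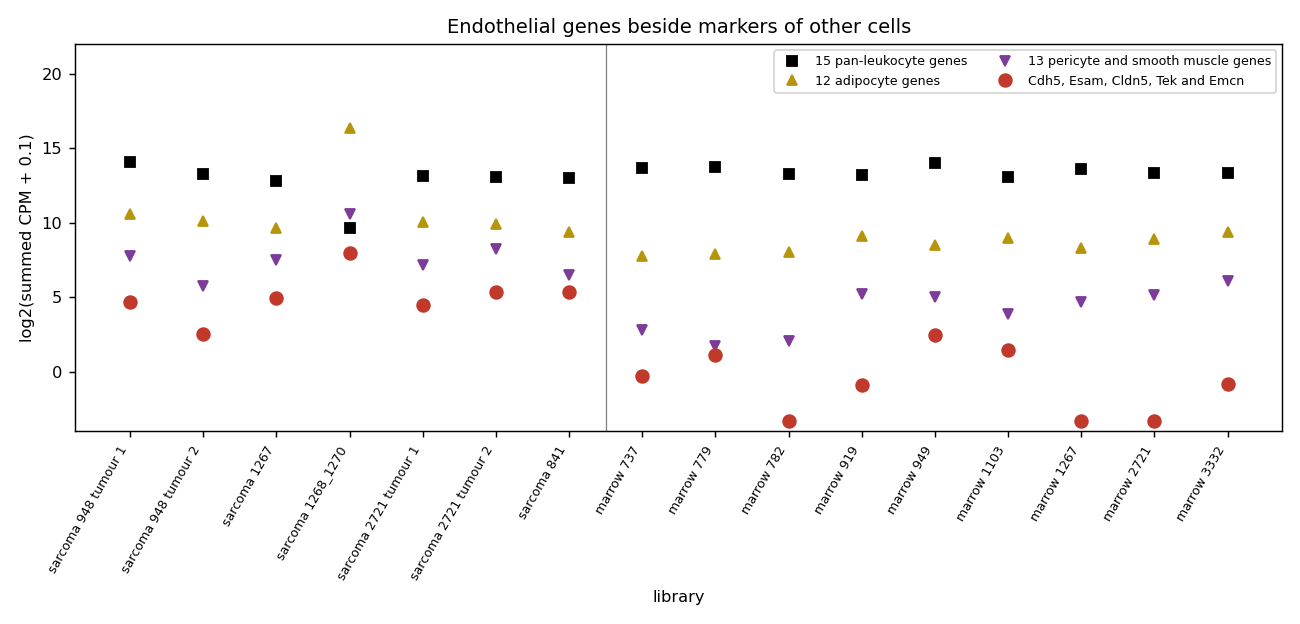
Summed level, log2(summed CPM + 0.1), of Cdh5, Esam, Cldn5, Tek and Emcn in each library beside the summed markers of other cells, with tumours on the left of the line and marrows on the right. These members were picked by their low marrow level, so their low marrow sums follow from that choice. Sarcoma 1268_1270 holds the highest endothelial sum (255 CPM) with the lowest pan-leukocyte sum (788 CPM) and the highest adipocyte sum (82843 CPM).

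Tumours of the same mouse could differ more than tumours of different mice. In mouse 948, tumour 1 had 179 counts of Cldn5, 52 of Tek and 61 of Emcn, and tumour 2 had 0 of each. Against the level of 3 counts in tumour 2, 0.236 CPM, tumour 1 was at least 45.9-fold higher for Cldn5, at least 15.6-fold for Emcn and at least 13.3-fold for Tek. Vwf went the other way, with 97 counts in tumour 1 and 534 in tumour 2, a difference of 2.82 log2 units. Esam was nearly even, at 52 and 60 counts. Tumour 2 had the smallest total of the SMC3+/- sarcomas (12072482 counts against 25649813 in tumour 1) but counts for 18413 symbols, the most of any library, 2278 of them with 1 to 5 counts. The part of depth in its zeros was not tested beyond the level of 3 counts given above.

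Over the 10 genes the median absolute difference between tumours was 2.89 log2 units in mouse 948, where 8 differed by over 1 unit. In mouse 2721 it was 0.41 units, and the 3 genes that differed by over 1 unit, Emcn (1.95), Tek (1.40) and Cldn5 (1.37), were all higher in tumour 2. These genes are among those at 0 in tumour 2 of mouse 948. Long transcripts lay at -0.55 log2 units in tumour 1 of mouse 948 and 0.33 in tumour 2. No test was made of 1 tumour against 1 other.

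**Figure D4:**
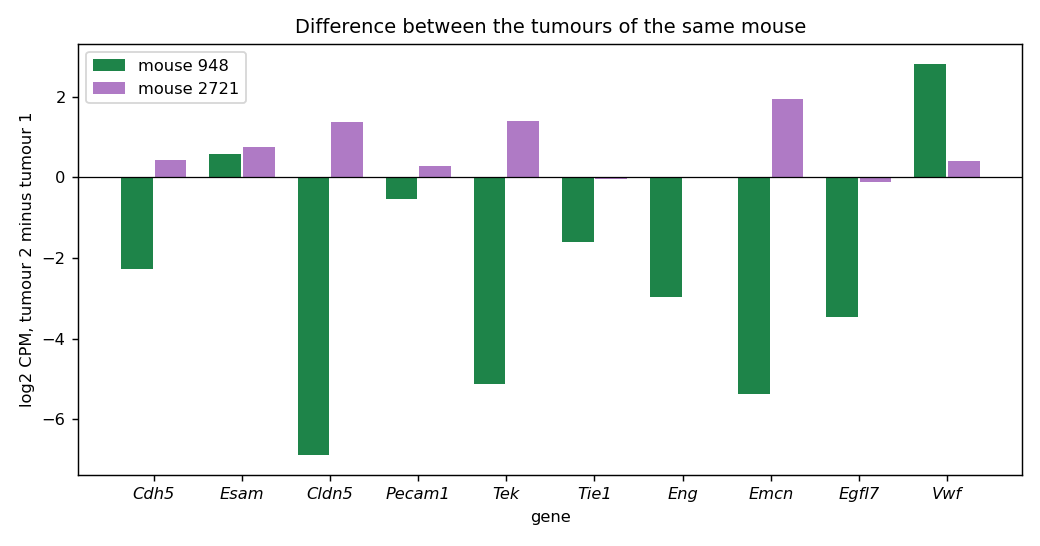
Difference between the tumours of the same mouse for each endothelial gene, log2 CPM of tumour 2 minus tumour 1 with a prior count of 2, so bars against 0 counts depend on that prior. In mouse 948, Cldn5, Tek and Emcn are far lower and Vwf higher in tumour 2, whereas in mouse 2721 the median absolute difference is 0.41.

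The members kept no fixed proportion to Cdh5 from tumour to tumour. Over 7 tumours the ratio of Pecam1 to Cdh5 ran from 1.16 in sarcoma 1268_1270 to 129 in tumour 2 of mouse 948. That of Eng was the steadiest of the 9, from 0.569 to 2.01. Esam ran from 0.347 to 5 with a median of 0.527, Tek from 0 to 0.642, Emcn from 0 to 0.753, Cldn5 from 0 to 2.21, Egfl7 from 0.474 to 6.07, Tie1 from 0.349 to 7.83 and Vwf from 0.395 to 44.5. The low end for Pecam1, Egfl7, Eng and Vwf was sarcoma 1268_1270, the tumour with the lowest pan-leukocyte sum and the most Cdh5, 99.2 CPM. That for Esam was mouse 841, and that for Tie1 was tumour 2 of mouse 2721. For Cldn5, Tek and Emcn it was tumour 2 of mouse 948. The part of blood cells in these ratios was not tested. The high end for Pecam1, Esam, Tie1 and Vwf was tumour 2 of mouse 948, where Cdh5 rests on 12 counts.

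**Figure D5:**
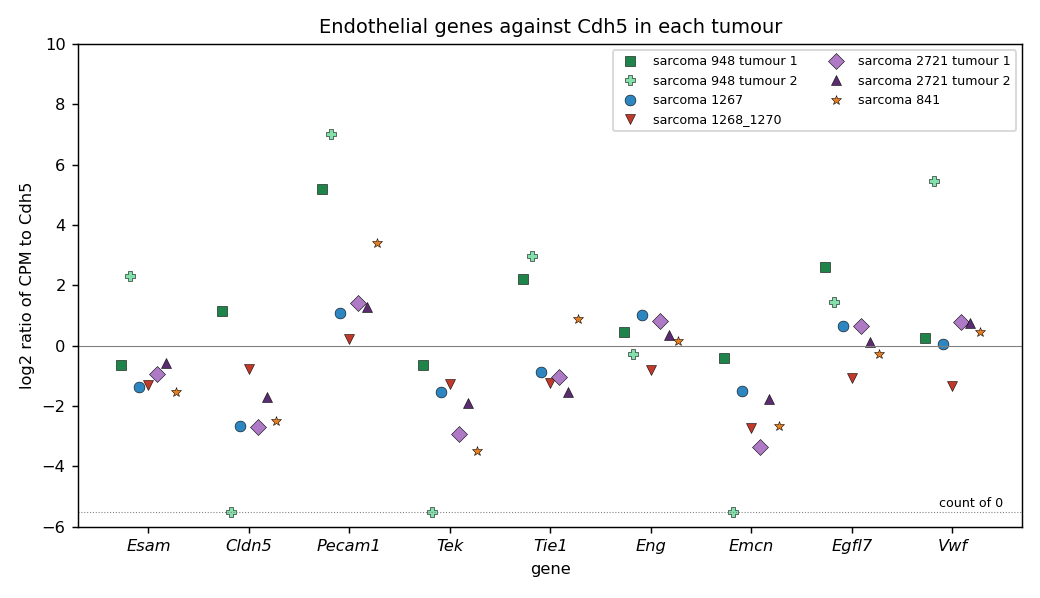
Ratio of each endothelial gene to Cdh5 in each of 7 tumours, log2, with counts of 0 on the dotted line. Pecam1 spans 1.16 to 129, while Eng spans 0.569 to 2.01.

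Mice 1267 and 2721 gave both tissues, so the genes were also read within each. In mouse 1267, Cdh5 had 13.8 CPM in the sarcoma and 0 counts in the marrow, at least 89.1-fold higher against the level of 3 counts. Esam was at least 34.9-fold, Emcn 31.7-fold, Tek 30.8-fold and Cldn5 14.1-fold higher by the same measure. In mouse 2721, Cdh5 was at least 127-fold, Esam 76.8-fold, Cldn5 30.7-fold, Emcn 26.7-fold and Tek 26.6-fold higher. These marrows are the pair with the fewest rarely counted genes of all, as given above.

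Pecam1, Egfl7, Eng and Vwf, which had 49 or more counts in each of these marrows, differed less within these mice. The ratio of sarcoma to marrow in mouse 1267 was 4.67 for Egfl7, 3.38 for Vwf, 3.19 for Eng and 1.92 for Pecam1. Tie1, at 73.8, rests on 2 marrow counts there. In mouse 2721 it was 10.1 for Egfl7, 9.08 for Tie1 from 17 marrow counts, 3.95 for Eng, 1.93 for Vwf and 1.02 for Pecam1. Pecam1 was thus level between the tissues of mouse 2721, where Cdh5 was not.

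With the mouse as a block in the edgeR fit, which rests on these 2 mice, Cdh5 was the member called, at 11.40 (adjusted p = 0.032). The calls of Esam (10.44, adjusted p = 0.324), Cldn5 (9.12, edgeR adjusted p = 0.332) and Tek (9.47, adjusted p = 0.471) were lost although their differences were larger than without the block. Without marrows 737, 779 and 782 and tumour 1 of mouse 948, the marrows and the tumour lowest in long transcripts, the difference in Cldn5 was 7.67 and not called (adjusted p = 0.0693), Tek and Emcn did not pass the count filter, and Esam alone was called. Without those and sarcoma 1268_1270, Esam was at 5.63 (adjusted p = 0.0899), and 0 of the 10 were called.

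Levels can be compared between genes only per length, here CPM per kilobase of the longest coding transcript in GENCODE M21, a later annotation than the mm9 build of the counts. In sarcomas Pecam1 stood highest at 23.9 ± 17.3, then Egfl7 at 18.5 ± 10.3, Cldn5 at 12.2 ± 19.3, Cdh5 at 8.11 ± 11.2, Eng at 7.92 ± 6.43 and Esam at 7.82 ± 9.36 CPM per kilobase (SD, n = 4). Tie1 at 4.16, Vwf at 2.86, Tek at 2.73 and Emcn at 2.39 were lowest. No neighbours in this order differed by more than their spread. With the median coding transcript in place of the longest, Egfl7 stood first, at 36.6, and Pecam1 next, at 26.4.

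In marrow the order of CPM per kilobase was Pecam1 at 12.4 ± 10.01, Egfl7 at 6.36 ± 4.65, Eng at 1.63 ± 1.04, Tie1 at 1.06 ± 1.67, Vwf at 0.564 ± 0.519 and Cdh5 at 0.217 ± 0.415 (SD, n = 9). Emcn at 0.0668, Cldn5 at 0.0516, Esam at 0.0389 and Tek at 0.0219 came last. Egfl7 and Eng lay apart by more than the SD of either, and the other neighbours did not. With the median coding transcript, Pecam1 and Egfl7 still led, but Vwf stood above Eng, at 2.28 against 1.74. The leading 3 by the longest transcript, Pecam1, Egfl7 and Eng, are those with at least 10 counts in each marrow. Blood cells can make all 3, but blood stem cells can also make Esam, Tek and Emcn, which came among the last. The part of blood cells in this order was not tested.

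Whether these 3 follow other markers from marrow to marrow was asked over the 9 marrow mice, against the platelet, stem and progenitor, monocyte and macrophage, and other endothelial lists, 12 relations in all. Pecam1 went with the mean level of the platelet list most closely, at Pearson r = 0.78 (exact permutation p = 0.00952, adjusted 0.114) and Spearman rho = 0.72 (exact permutation p = 0.0369, adjusted 0.442). Without the 2 marrows farthest from the median, r was 0.48, and over the 6 marrows other than 737, 779 and 782 it was 0.74. The relation of Pecam1 to the stem and progenitor list had r = 0.73 (exact permutation p = 0.029, adjusted 0.153) and rho = 0.48 (exact permutation p = 0.194, adjusted 0.552). That of Pecam1 to the other endothelial genes had r = 0.68 (exact permutation p = 0.0413, adjusted 0.153) and rho = 0.62 (exact permutation p = 0.0857, adjusted 0.514), with r = 0.90 without the 2 marrows farthest from the median and 0.59 over the 6 marrows. The relation of Pecam1 to the monocyte and macrophage list had r = 0.68 (exact permutation p = 0.051, adjusted 0.153) and rho = 0.40 (exact permutation p = 0.291, adjusted 0.582). Over the same lists, Pearson r ran from -0.44 to -0.18 for Egfl7 and from 0.28 to 0.57 for Eng. None of the 12 passed the adjustment.

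The sarcoma of mouse 841 is 1 library, so its values are set beside the range of the SMC3+/- sarcoma mice with no test. Pecam1, at 241 CPM, lay above their 29.1 to 149 CPM and was the highest value of Pecam1 in any library. Tie1, at 41.8 CPM, lay near the upper end of 5.62 to 42.2 CPM. Cdh5 at 22.5, Esam at 7.81, Cldn5 at 3.996, Egfl7 at 18.7, Tek at 1.998, Emcn at 3.54, Eng at 25.1 and Vwf at 30.7 CPM all lay inside the range of the 4 mice. Relative to 1000 CPM of pan-leukocyte genes, Pecam1 was 29.6 CPM in mouse 841, 146 in sarcoma 1268_1270, 3.55 to 12.3 in the other tumours and 0.836 to 14.4 in marrow.

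Of 11083 other genes with enough signal, those whose log2 CPM over the 16 libraries was most like the mean of Cdh5, Tie1, Cldn5 and Esam were Cald1 (r = 0.92), Ptrf (0.92), Nudt9 (0.90), Nid1 (0.89), Sparc (0.89), Col4a2 (0.89), Sorbs3 (0.88), Tpm2 (0.88), Mmp2 (0.88) and Postn (0.88). These are descriptions over libraries that share tissue, depth and sarcoma 1268_1270, and 2 of the 15 other endothelial genes ranked were among the first 100. Within the 7 tumours alone, the r of Cald1 was 0.71 and that of Ptrf 0.79. Each member measured against the mean of the 4, itself left out, gave 0.91 for Esam, 0.89 for Cdh5, 0.88 for Emcn and Tek, 0.85 for Cldn5, 0.77 for Tie1, 0.71 for Eng, 0.64 for Pecam1, 0.60 for Vwf and 0.55 for Egfl7. This order depends on the reference, of whose 4 genes all but Tie1 are among the members lowest in marrow.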

How the data were processed

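The authors deposited 1 table of raw counts per gene symbol for 16 libraries, whose column names gave the samples. The submitters' processing notes list STAR, DESeq, DESeq2 and mm9 with neither version nor role, and do not give strand or annotation. Counts of tumours from 1 mouse were added together, giving 4 sarcoma and 9 marrow mice. Genes passing filterByExpr were tested with edgeR 4.0.16 under R 4.3.3 (TMM, glmQLFit with robust estimation, glmQLFTest, two-sided), and DESeq2 1.42.0, limma-voom (limma 3.58.1) and other scalings, filters and sample choices were tried. Log2 CPM used a prior count of 2. The members and lists were chosen with earlier results of these data known. Named genes are all members, up to 4 called genes of each list with the smallest adjusted p or, where fewer than 2 were called, its 2 most abundant, and the 10 genes most like the members. Those of the platelet, pan-leukocyte, erythroid, fibroblast, adipocyte, muscle, pericyte and macrophage lists are given as counts, apart from Pf4. Other pathway genes named were picked after their values were seen. Counts carry no molecular identifiers, so floors cover counting error only. Same-mouse samples come from the same animal per the labels, and their deviations correlated at 0.29 (mouse 1267) and 0.21 (mouse 2721). The closest libraries, the tumours of mouse 2721, differed by a mean chi-square of 18.6 per gene.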

Additional observations from a re-analysis of the deposited data

Results flagged for a closer look

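Of 20 tests of 1 mouse against the rest of its group, 8 found a value far from the others. The nominal rate of 1 in 20 is meant for normally distributed values and separate tests. Values here are skewed, several marrow values are 0 and the tests share the same mice, so the 8 flags cannot be set against that rate. In the sarcomas, mouse 1268_1270 stood apart for 4 genes: Cdh5 at 99.2 CPM with the next mouse at 13.8, Esam at 40.6 with the next at 8.39, Cldn5 at 58.2 with the next at 5.40, and Tek at 41.5 with the next at 4.76 CPM. In the marrows, Pecam1 stood apart in mouse 1103 at 125 CPM (next 63.0), Cdh5 in mouse 949 at 5.05 (next 1.62), and Tek and Emcn in mouse 779 at 0.645 (next 0.142) and 1.11 (next 0.285). The marrow values of Tek and Emcn in mouse 779 rest on 7 and 12 counts.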

How the results depend on the processing

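No member changed direction under any alternative in which it was tested, and 0 were called lower in each. The count of members called higher, 3 of 10, was 5 with DESeq2, 5 with limma-voom, 5 with no count filter, 7 when mouse entered limma-voom as a random term, and 1 in each mouse block fit (all mice, or mice 1267 and 2721 alone, where Cdh5 is the member called, at 11.40 and 11.66). It was 0 when at least 10 counts in 9 samples were required, which leaves out the members at 0 in marrow. It was 1 without the marrows and the tumour lowest in long transcripts, and 0 without sarcoma 1268_1270 as well. Leaving out 1 mouse and tissue gave 1 (without sarcoma 1268_1270) to 5 (without sarcoma 948). The share of all genes called higher, 4.49%, moved as well. It was 6.42% with no count filter, 9.05% with mouse as a random term, 0.726% and 0.563% in the block fits, and 0.589% with at least 10 counts in 9 samples. Without the marrows and the tumour lowest in long transcripts it was 2.04%, and 0.41% without sarcoma 1268_1270 too. Without that sarcoma alone it was 1.13%. When counts were scaled to pan-leukocyte genes, 10 members were called, but the all-gene median shifted to 2.13 and 58.4% of all genes were called higher too. Against that shift, Pecam1 lay at 3.32 and Egfl7 at 4.34. Without marrows 949 and 1103, an alternative chosen after seeing the data, 4 were called, and Cdh5 differed by 7.68.

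The 17 other endothelial genes called became 36 under pan-leukocyte scaling, 0 with at least 10 counts in 9 samples, and 5 and 1 in the mouse block fits. Their number was 8 without the marrows and the tumour lowest in long transcripts, and 0 without sarcoma 1268_1270 too. Leaving out 1 mouse and tissue gave 2 (without sarcoma 1268_1270) to 19. Genes not called changed sign: Lyl1 was 0.51 under pan-leukocyte scaling, 0.35 and 0.38 in the block fits and -0.86 to 0.037 with 1 mouse left out. Ets1 was 0.12 with limma-voom, 0.99 under pan-leukocyte scaling and -0.59 to 0.0065 with 1 mouse left out. Dok2 was 1.16 under that scaling, 0.12 and 0.18 in the block fits and 0.10 with mouse 841 added, and Smad4 was 2.05 under that scaling. The cause of these changes was not tested. The members' marrow values near 0 rest on 15 to 26 counts in all for Cldn5, Tek, Esam and Emcn, so depth limits their fold changes, and 4 sarcoma mice limit every comparison. Samples are paired by mouse, in mice 1267 and 2721, and the mouse block above is the paired analysis, since the replicate numbers count tumours within a mouse.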
